A study of Homo sapiens with 17 samples.

Results

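The cadherins and protocadherins were followed in neuroblastoma cells after induction of an active NOTCH3. The family was taken as every gene whose annotated symbol begins with CDH or PCDH followed by a digit or by the A, B or G name of a protocadherin cluster, with the CDHR genes left out. This gave 69 of the 19775 genes named on the arrays, each read from its probe set of highest mean log2(signal + 16). Of the 69, 28 reached the intensity filter that 13675 of the 19775 genes passed, and 41 did not. The genes were picked by name only, while the probe set of each was picked by its mean over all arrays.

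The cells were IMR32, a human neuroblastoma line, carrying a construct from which doxycycline induces NOTCH3IC, the intracellular part of the receptor NOTCH3 and its active form. Total RNA of clone c8 was hybridised at times 0, 4, 8, 12, 24, 48, 72 and 96 (8 arrays) and that of clone c6 at the same times and at 120 (9 arrays), with 1 array per clone and time. The times carry no unit in the labels, and each of the 2 lines is 1 clone. The phases compared all carry the construct: start (time 0, 2 arrays), early (times 4, 8 and 12 with doxycycline, 6 arrays) and late (times 48, 72 and 96 with doxycycline, 6 arrays). Times 24 and 120 enter the test of change over time, and time 24 also the clone difference in level. No culture without doxycycline after time 0 was analysed here, so time in culture, doxycycline and NOTCH3IC cannot be told apart in any comparison. Whether a time point was its own culture is not in the labels, and p-values therefore cover only the spread between these arrays.

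Classical cadherins are single-pass membrane proteins that bind a cadherin on the neighbouring cell through calcium-stabilised extracellular repeats, while their tail holds beta-catenin and, through alpha-catenin, the actin cytoskeleton. Type I members such as CDH1 (E-cadherin) and CDH2 (N-cadherin) carry strong adhesion, whereas type II members such as CDH6, CDH7 and CDH11 are known from migrating and mesenchymal cells. In chick embryos the neural crest, the tissue from which sympathetic neuroblasts and so neuroblastoma descend, expresses relatives of CDH6 before it leaves the neural tube and CDH7 while it migrates, and in the frog Xenopus Cdh11 is needed for crest cells to migrate. Protocadherins lack the catenin-binding tail. The clustered ones, in alpha, beta and gamma arrays on a single chromosome, give neurons their surface identity, and the non-clustered ones sort cells and guide axons in the developing nervous system.

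The induction was visible in the RNA. NOTCH3 rose by 1.88 ± 0.19 on the log2 scale late against start (adjusted p = 1.03e-05, limma), and its target HES1 by 2.86 ± 0.33 (adjusted p = 4.39e-05). The place of the NOTCH3 probe set relative to the construct was not checked. Early against start NOTCH3 gave 0.74 ± 0.19, adjusted p = 0.0556, and HES1 4.04 ± 0.33, adjusted p = 8.29e-06. Late against early HES1 then fell (-1.18 ± 0.20, adjusted p = 0.0017), while NOTCH3 rose (1.14 ± 0.24, adjusted p = 0.00742). Of 9 neuroblast markers read, 8 passed the filter. Late against start 1 of them rose, STMN2 (1.23 ± 0.21, adjusted p = 0.00119), and 2 fell, DBH, the enzyme that makes noradrenaline (-2.19 ± 0.34, adjusted p = 0.000546), and PHOX2A (-0.77 ± 0.13, adjusted p = 0.00127), with a list median of -0.21, and their part in the members' changes was not tested. Of all genes tested, 5.21% rose and 1.73% fell late against start. GATA3 was at 3045 to 4290, PHOX2A at 583 to 1598 and ELAVL4 at 819 to 1221 on all 17 arrays, while TH, the enzyme that starts catecholamine synthesis, was at 0.4 to 8.5. Array medians lay between 14.6 and 19.3.

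Late against start, 5 of the 28 family members above the filter changed, 4 of them higher (CDH11, CDH6, PCDH18 and PCDH1) and 1 lower (CDH7), at an adjusted p under 0.05 from limma with Benjamini-Hochberg adjustment over all 13675 genes. Those 5 are 17.9% of the 28, beside 6.94% of all genes tested that passed the same test (5.21% higher and 1.73% lower). The median log2 difference of the 28 was 0.22, against 0.015 for all genes tested. The filter acts on the mean over all arrays, so a gene that is bright only late passes it through its late arrays, and the counts over the 28 are a description only. By class, the changed members were 3 of 8 type II cadherins (2 higher, 1 lower) and 2 of 8 non-clustered protocadherins (both higher). Neither of the 2 type I cadherins above the filter passed, nor did any of the 9 clustered protocadherins above it.

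**Figure D1:**
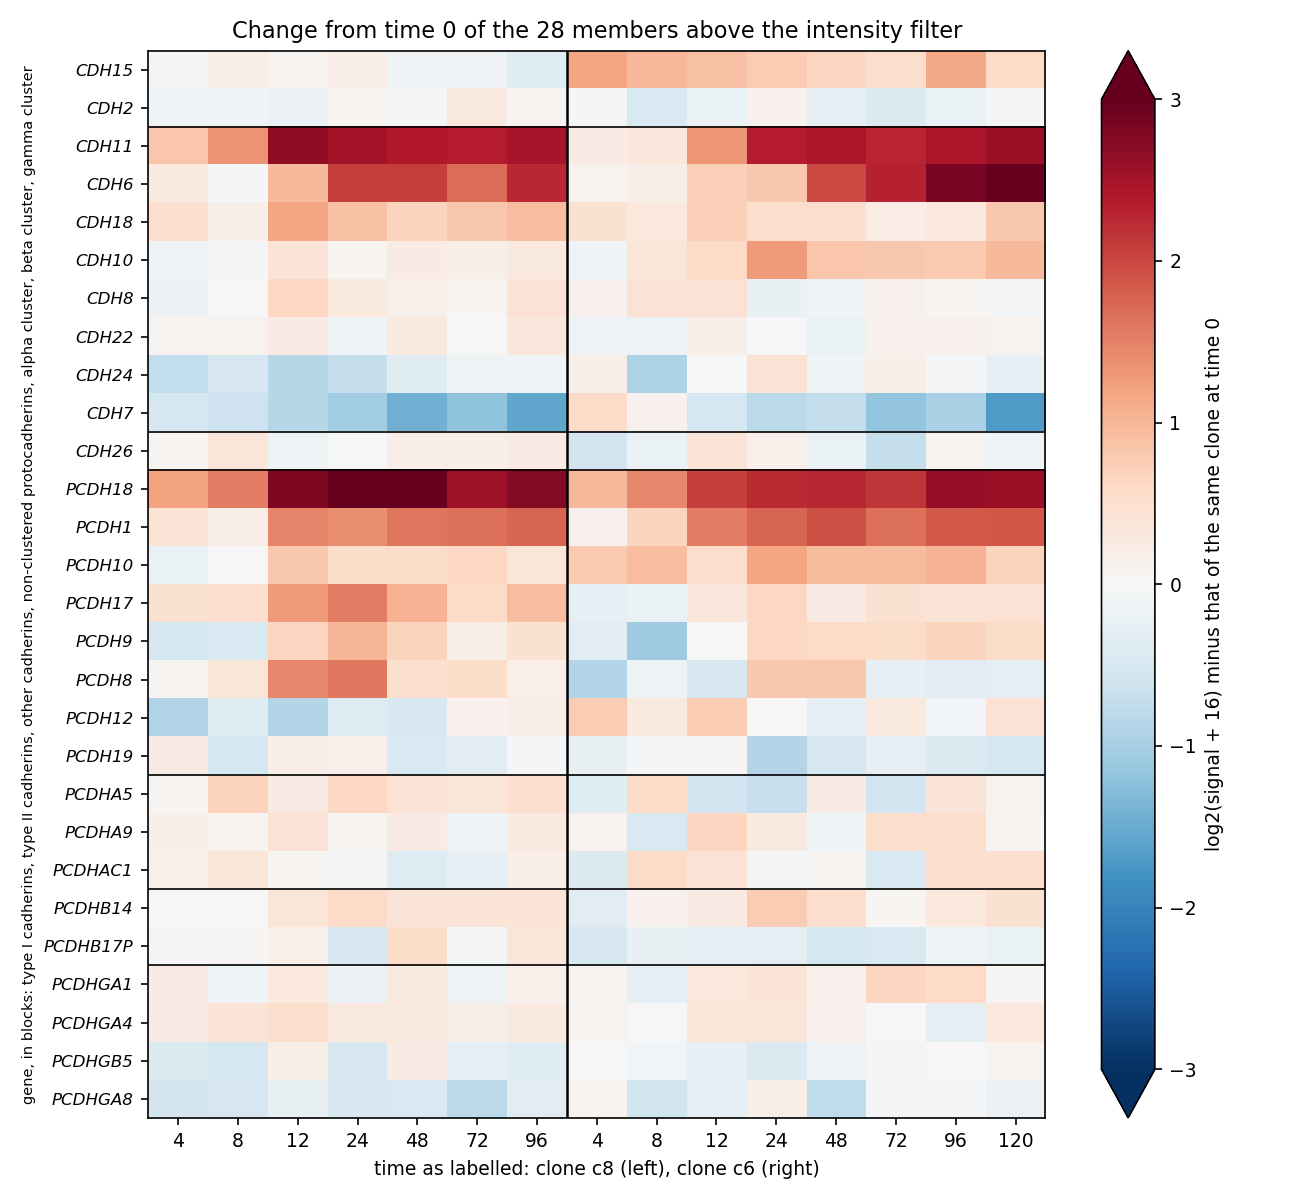
Log2 difference of each of the 28 cadherins and protocadherins above the intensity filter (rows, grouped by class) from its own clone's time 0, on log2(signal + 16), for each array of clone c8 (left block) and clone c6 (right block) in order of labelled time. CDH11, CDH6, PCDH18 and PCDH1 are positive and CDH7 negative at times 48, 72 and 96 in both clones, and the clustered protocadherins stay paler; the colour scale ends at 3, and larger differences take the end colour.

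CDH2, the N-cadherin of neurons and mesenchymal cells and a type I cadherin, was bright on every array. Its signal in clone c8 was 302 at time 0, 274 at time 4, 279.9 at time 8, 265 at time 12, 313 at time 24, 290.3 at time 48, 372 at time 72 and 318 at time 96. In clone c6 it was 453 at time 0, 439 at time 4, 326 at time 8, 392 at time 12, 496 at time 24, 371 at time 48, 329 at time 72, 391 at time 96 and 442 at time 120. The late arrays lay within the range of the others in clone c6, and in clone c8 each late array was above each early one by a small margin. Late against start it differed by -0.10 ± 0.15 (log2, adjusted p = 0.781, limma), with a 95% interval of -0.41 to 0.21. CDH2 was 1.3-fold lower in clone c8 than in clone c6 (-0.38 ± 0.089, adjusted p = 0.00702), and lower at 7 of the 8 shared times.

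The other type I members were dim. CDH1, the E-cadherin of epithelia, stayed below the filter with a lowest, median and highest signal of 0.4, 1.3 and 6.6 over the 17 arrays, and CDH3, the P-cadherin, was also below it at 0.8 to 13.8. CDH15, the M-cadherin of skeletal muscle, passed the filter at 4.2 to 29.6 and gave 0.29 ± 0.24, adjusted p = 0.584 late against start. The skeletal muscle markers MYOD1, MYOG and MYF5 never reached 16. CDH13 was not listed under a single symbol.

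CDH11, a type II cadherin known from osteoblasts and fibroblasts, stood at several times its starting signal late in the course in both clones. In clone c8 its signal was 146 at time 0, 272 at time 4, 399 at time 8, 1011 at time 12, 891 at time 24, 846 at time 48, 814 at time 72 and 879.5 at time 96. In clone c6 it was 162 at time 0, 194 at time 4, 211 at time 8, 430.2 at time 12, 892 at time 24, 948 at time 48, 853 at time 72, 950.3 at time 96 and 1043 at time 120. Clone c8 stood above 800 from time 12 on, and clone c6 from time 24 on. The ranges of the late and early arrays were separate in clone c6 and overlapped in clone c8, where time 12 was the highest array.

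CDH11 rose 5.27-fold late against start (2.40 ± 0.23, adjusted p = 7.53e-06, log2 scale, limma) and 2.41-fold late against early (1.27 ± 0.27, adjusted p = 0.00771). Early against start the rise was 2.18-fold (1.13 ± 0.23, adjusted p = 0.0178), but without the time 0 array of clone c8 the adjusted p was 0.335 and without that of clone c6 0.109, so the early call rests on both. It was also lost without time 12 of both clones (0.69, adjusted p = 0.139), an alternative chosen after seeing the data. No intensity filter, averaged probe sets, no intensity trend, no clone term, phase means and each clone alone lost it too. In all, 10 of 30 alternatives lost this early call. The gene has 4 probe sets, and over all 54675 probe sets the others gave 1.49 ± 0.15, adjusted p = 7.67e-05, then 0.70 ± 0.23, adjusted p = 0.192, and 0.55 ± 0.18, adjusted p = 0.215 late against start, all positive but smaller, and the mean of the 4 gave 1.29. The probe set used has the suffix _x_at, by which the array's maker marks probes that may bind related transcripts.

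Markers of mesenchymal cell types moved in the same arrays, where 5.21% of all genes tested rose and 1.73% fell late against start. Of 7 smooth muscle and pericyte markers, all above the filter, 5 rose late against start (ACTA2, TAGLN, MYH11, CNN1 and RGS5), and the summed signal of the 7 was 142 to 226 at the start, 149 to 598 early and 3767 to 13953 late. Of 7 fibroblast markers 4 rose (COL3A1, LUM, DCN and THY1) and 1, PDGFRA, fell, with sums of 989.9 to 1346 at the start, 815 to 1845 early and 4820 to 8644 late. Most of the late sum was COL3A1, with late means of 4617 in clone c8 and 5075 in clone c6, from 10.2 and 8.4 at the start. COL1A1 gave 0.49 ± 0.29, adjusted p = 0.410 late against start (limma). DES was at 3.6 to 24.5 and COL1A2 at 0.6 to 19.0. Their part in the change of CDH11 and of the other members was not tested, and in RNA of whole cultures more cells of a type and more RNA per cell cannot be told apart. Of the markers read for other cell types, the filter was passed by 2 of 7 endothelial, 2 of 7 epithelial, 1 of 4 Schwann, 3 of 4 melanocyte and 1 of 3 blood genes. None of these passed the test late against start, and the rest were too dim to be tested.

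CDH6, the K-cadherin of kidney and a type II cadherin, came up later. Clone c8 had a signal of 11 at time 0, 17.1 at time 4, 10.4 at time 8, 37.2 at time 12, 97.4 at time 24, 96.9 at time 48, 70 at time 72 and 114 at time 96. Clone c6 had 12.8 at time 0, 15 at time 4, 16.5 at time 8, 31.5 at time 12, 34.3 at time 24, 97.9 at time 48, 128 at time 72, 192 at time 96 and 332 at time 120. All 6 late arrays stood above all early arrays of their own clone. In clone c8 the signal reached its late range at time 24, and in clone c6 it kept increasing up to time 120, the highest value of the gene.

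CDH6 rose 4.57-fold late against start (2.19 ± 0.27, adjusted p = 6.34e-05, log2 scale, limma) and 3.53-fold late against early (1.82 ± 0.20, adjusted p = 2.23e-05), while early against start it gave 0.37 ± 0.27, adjusted p = 0.589. On log2(signal + 16), the difference at time 120 of clone c6 was 151% of that clone's mean late difference. The gene has 6 probe sets. In the fit over all 54675 probe sets only the probe set used here passed late against start. The other 5 ranged from 0.063 to 0.80, and the mean of the 6 gave 0.77, past the threshold with an adjusted p of 0.00824. With a pseudocount of 64 in place of 16 the difference was 1.22.

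CDH7, a type II cadherin of the migrating crest in chick, was the member that fell. Signals of 92.5 at time 0, 59.4 at time 4, 54 at time 8, 44.2 at time 12, 36.9 at time 24, 24 at time 48, 30.7 at time 72 and 20.8 at time 96 were measured in clone c8. Those of clone c6 were 154 at time 0, 238 at time 4, 171 at time 8, 102 at time 12, 80.4 at time 24, 88.2 at time 48, 58.2 at time 72, 71.1 at time 96 and 36.7 at time 120. All late arrays lay below all early arrays of their own clone. Clone c8 was below its time 0 at every later time, while in clone c6 times 4 and 8 were above it and every time from 12 on was below.

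CDH7 fell to a level 2.27-fold lower late against start (-1.18 ± 0.20, adjusted p = 0.00108, log2 scale, limma) and 1.84-fold lower late against early (-0.88 ± 0.16, adjusted p = 0.00297), with -0.30 ± 0.20, adjusted p = 0.542 early against start. Without the time 0 array of clone c8 the late difference was -0.91 (adjusted p = 0.0924). In clone c6 alone it was -0.95 (adjusted p = 0.257), and without a clone term the adjusted p was 0.369. CDH7 was also 2.17-fold lower in clone c8 than in clone c6 (-1.12 ± 0.12, adjusted p = 2.13e-05), and lower at all 8 shared times. Its other probe set was below the filter at 0.1 to 11.5. With a pseudocount of 64 the late difference was -0.75, and the mean of both probe sets gave -0.65.

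The remaining type II members had no change over time that passed. CDH10, a cadherin of the brain, had signals of 224 to 331 in clone c8 and 65.3 to 200.5 in clone c6 over the shared times, with every array of clone c8 above every array of clone c6. Late against start it gave 0.53 ± 0.19, adjusted p = 0.129. CDH22 was at 26.4 to 46.4 and CDH24 at 6.6 to 45, and they gave 0.12 ± 0.16, adjusted p = 0.764 and -0.10 ± 0.26, adjusted p = 0.878. CDH8 and CDH18 passed the filter with highest signals of 22.2 and 28.5. CDH5, the VE-cadherin of endothelium, was below the filter with a lowest, median and highest signal of 0.9, 6.6 and 15.3, as were CDH9, CDH12, CDH19 and CDH20. By the RefSeq gene order CDH5 and CDH8 are the protein-coding neighbours of CDH11, and CDH19 is the neighbour of CDH7.

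**Figure D2:**
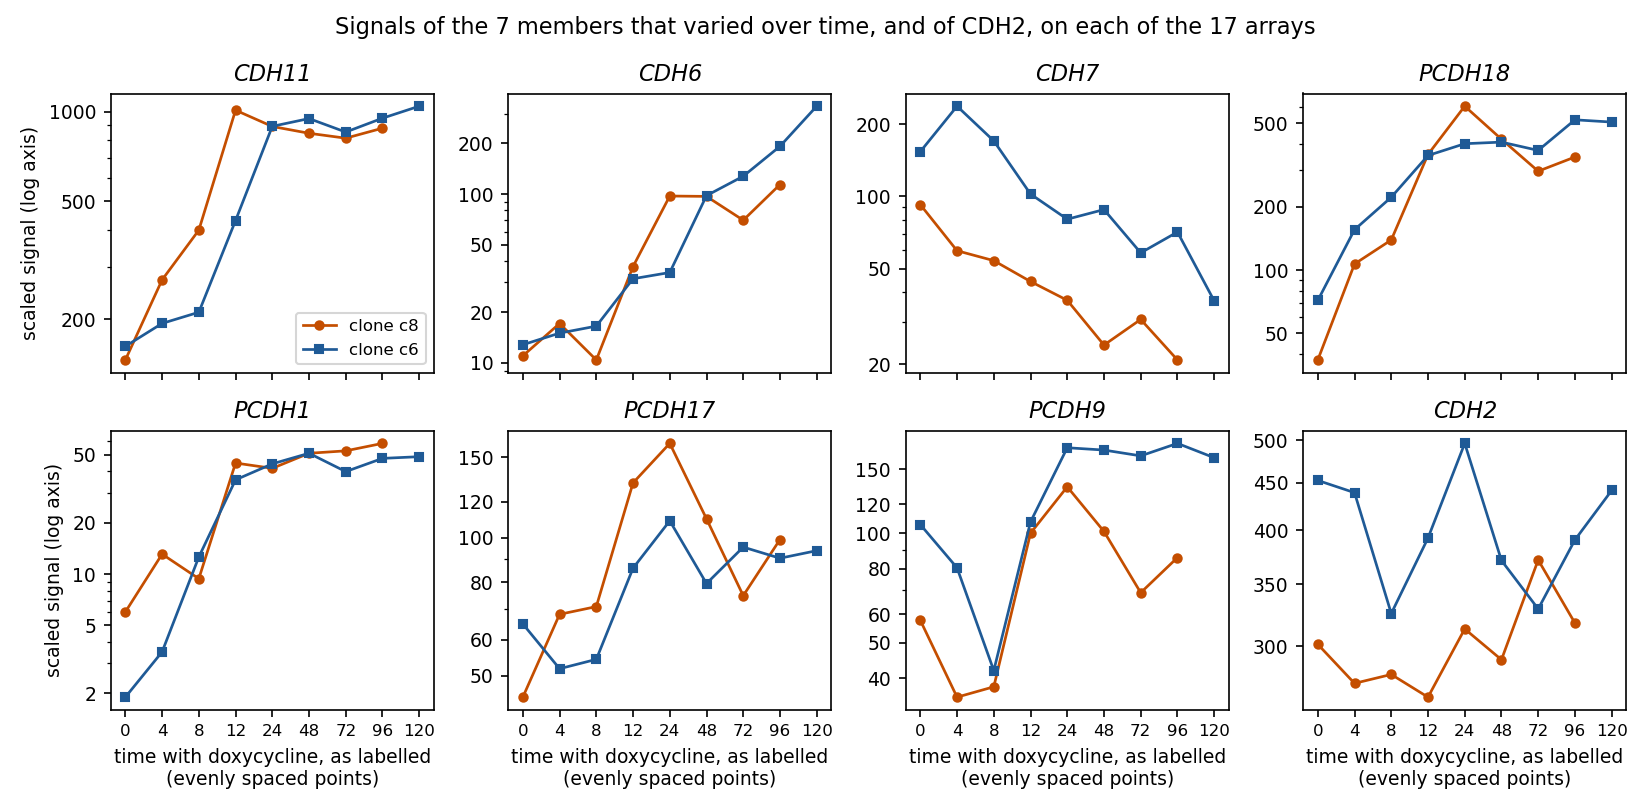
Signal (log axis) against labelled time for 8 family members, each point 1 array, clone c8 and clone c6 as separate lines. They are the members that changed in any comparison over time, and CDH2, which was fixed by name. CDH11, CDH6, PCDH18 and PCDH1 end well above time 0 in both clones, CDH7 ends below it, and CDH2 stays between 265 and 496.

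Among the non-clustered protocadherins, PCDH18 rose after time 0 in both clones. It is a delta-2 protocadherin, a group with several members whose tail binds the WAVE complex of actin assembly. The signal in clone c8 was 37.4 at time 0, 107 at time 4, 139 at time 8, 355 at time 12, 602 at time 24, 419.6 at time 48, 296 at time 72 and 345 at time 96. The signal in clone c6 was 71.8 at time 0, 156 at time 4, 222 at time 8, 351 at time 12, 399 at time 24, 406 at time 48, 371 at time 72, 519 at time 96 and 506 at time 120. All 15 arrays after time 0 were above their own clone's time 0, and clone c8 reached a 2-fold difference on log2(signal + 16) at time 4, against time 8 in clone c6.

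PCDH18 rose 5.89-fold late against start (2.56 ± 0.20, adjusted p = 1.35e-06, log2 scale, limma) and 3.18-fold early against start (1.67 ± 0.20, adjusted p = 0.000392). The early call is the only member call of that comparison that was kept without either time 0 array. Late against early it rose 1.85-fold (0.89 ± 0.23, adjusted p = 0.0300), with the late and early arrays overlapping in clone c8. That call was lost when time 4, 8, 48 or 96 of either clone was left out (0.74 to 0.91, adjusted p from 0.0536 to 0.0874). No intensity filter, no intensity trend, no clone term and each clone alone lost it too, so that 13 of 29 alternatives did. The second probe set of PCDH18 gave 1.86 ± 0.20, adjusted p = 0.000126 late against start.

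PCDH1, a delta-1 protocadherin known from airway epithelium, was near the floor of the arrays at the start. Clone c8 gave 6 at time 0, 13.1 at time 4, 9.4 at time 8, 44.8 at time 12, 41.7 at time 24, 51.1 at time 48, 52.8 at time 72 and 58.4 at time 96. Clone c6 gave 1.9 at time 0, 3.5 at time 4, 12.6 at time 8, 35.7 at time 12, 44.3 at time 24, 51.1 at time 48, 39.9 at time 72, 47.7 at time 96 and 48.8 at time 120. All late arrays were above all early arrays of their own clone, and the step fell between times 8 and 12 in both clones. The start signals of 6.0 in clone c8 and 1.9 in clone c6 were below the signal of 9.58 to which the filter corresponds.

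PCDH1 rose 3.32-fold on the log2(signal + 16) scale late against start (1.73 ± 0.17, adjusted p = 1.11e-05, limma) and 2-fold late against early (0.997 ± 0.22, adjusted p = 0.0125). The size depends on the pseudocount: the log2 difference was 3.50 with 1 and 0.75 with 64. Early against start it gave 0.73 ± 0.17, adjusted p = 0.0403, and this call was lost without time 0, 48 or 96 of either clone, time 4, 12 or 72 of clone c8 or time 8 of clone c6 (0.66 to 0.80, adjusted p up to 0.548), and without time 12 of both clones (0.35, adjusted p = 0.617). With each clone alone the late rise was of like size (1.67 in clone c8 and 1.79 in clone c6) and did not pass (adjusted p = 0.128 and 0.0537). Its other probe set was below the filter and gave 0.44 ± 0.11, adjusted p = 0.0673. The early call of PCDH1 was also lost with a pseudocount of 64, quantile normalization, median centring, no intensity filter, averaged probe sets, no clone term, phase means and each clone alone. In all, 20 of 29 alternatives lost it.

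The bases before an annotated start of these genes are shown because PCDH18, PCDH1 and CDH7 are the members that changed late against start and for which RefSeq (GRCh38.p14) gave a promoter, and because NOTCH3IC acts through the DNA-binding protein RBPJ and through HES and HEY repressors. Each window is the 250 bases before a start that RefSeq lists, 5′ to 3′ on the gene's strand. The windows printed for PCDH18 and CDH7 adjoin the outer end of the annotated gene, whereas the start listed for PCDH1 lies inside its annotated gene, downstream of the outermost 5′ end, so its window is not the sequence upstream of the whole gene. Capitals mark a match, on either strand, to TGGGAA (the RBPJ core), CACGTG (an E-box of HES and HEY factors) or CAGGTG (the E-box of SNAI factors). The PCDH18 window is chr4:137532495-137532744 (minus strand), that of PCDH1 chr5:141869628-141869877 (minus strand) and that of the first of the starts of CDH7 chr18:65750002-65750251 (plus strand).
PCDH18: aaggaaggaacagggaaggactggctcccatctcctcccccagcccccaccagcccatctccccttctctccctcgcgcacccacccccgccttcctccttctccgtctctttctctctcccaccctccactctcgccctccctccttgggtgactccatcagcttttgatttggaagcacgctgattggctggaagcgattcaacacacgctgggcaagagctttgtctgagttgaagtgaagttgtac
PCDH1: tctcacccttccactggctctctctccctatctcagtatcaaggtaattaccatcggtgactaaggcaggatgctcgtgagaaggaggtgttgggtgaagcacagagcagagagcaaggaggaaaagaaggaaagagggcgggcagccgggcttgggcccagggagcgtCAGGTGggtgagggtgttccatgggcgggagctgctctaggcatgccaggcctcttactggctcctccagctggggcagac
CDH7: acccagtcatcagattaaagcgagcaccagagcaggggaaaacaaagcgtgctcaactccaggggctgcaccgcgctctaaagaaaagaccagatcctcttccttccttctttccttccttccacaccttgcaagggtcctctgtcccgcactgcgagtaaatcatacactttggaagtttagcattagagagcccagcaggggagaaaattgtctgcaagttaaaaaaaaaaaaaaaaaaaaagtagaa
PCDH1 held 1 CAGGTG, whose first base lies at -81 from that internal start, and the windows of PCDH18 and of both starts of CDH7 held none of the 3 motifs. Of 67 member promoters (52 of the 69 genes matched), 19.4% held TGGGAA, against 20.8% of all 35116 promoters. CAGGTG was in 7.46% of member promoters, against 17.5% of all, and CACGTG in 2.99%, against 6.34%. Both E-boxes have the form CANNTG and differ in the letters between, so no site counts for both, and no match says only that these letters are not in this window. CDH11 and CDH6 had no entry.

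PCDH17, a delta-2 protocadherin of axons and synapses, changed over time with its highest signals in the middle of the course. Along the course of clone c8 it had 44.9 at time 0, 68.1 at time 4, 70.8 at time 8, 132 at time 12, 161 at time 24, 110.1 at time 48, 74.8 at time 72 and 99.2 at time 96. Along that of clone c6 it had 64.9 at time 0, 51.8 at time 4, 54.3 at time 8, 85.9 at time 12, 109 at time 24, 79.5 at time 48, 95.5 at time 72, 90.3 at time 96 and 93.8 at time 120. The highest array was that of time 24 in both clones, and late and early arrays overlapped in both. It passed the test of change over time (adjusted p = 0.0485, limma) and gave 0.61 ± 0.18, adjusted p = 0.0618 late against start. The time call was lost when time 4, 8, 24, 48 or 96 of either clone or time 0 of clone c8 was left out (adjusted p from 0.0634 to 0.115). It was also lost with a pseudocount of 1 (adjusted p = 0.0559), quantile normalization (0.0848), median centring (0.113), averaged probe sets (0.0692), no intensity filter (0.144), a stricter filter at the 60th percentile (0.0508), no intensity trend (0.102) and no clone term (0.226), so that 19 of 27 alternatives lost it. The late difference passed without time 0 of clone c6, time 12 of clone c6, time 12 of clone c8 or time 72 of clone c8 (0.61 to 0.95, adjusted p from 0.0319 to 0.0474).

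PCDH9, a delta-1 protocadherin of the brain, was lowest on early arrays. Arrays of clone c8 read 57.7 at time 0, 35.5 at time 4, 37.9 at time 8, 100.1 at time 12, 134 at time 24, 101 at time 48, 68.7 at time 72 and 85.8 at time 96. Arrays of clone c6 read 106 at time 0, 80.4 at time 4, 42 at time 8, 108 at time 12, 172 at time 24, 169 at time 48, 163 at time 72, 177 at time 96 and 161 at time 120. Times 4 and 8 were below time 0 in both clones and time 24 was above it in both. The late range was above the early range in clone c6 and overlapped it in clone c8. PCDH9 rose 1.75-fold late against early (0.81 ± 0.21, adjusted p = 0.0319, log2 scale, limma), a call lost without time 4, 8, 48 or 96 of either clone or time 72 of clone c6 (0.65 to 0.83, adjusted p from 0.0569 to 0.0881). Averaged probe sets, no intensity filter, no intensity trend, no clone term and clone c8 alone lost it too, so that 14 of 29 alternatives did. PCDH9 also changed over time (adjusted p = 0.00297), a call lost with averaged probe sets and with no clone term. It gave 0.53 ± 0.19, adjusted p = 0.129 late against start. It was 1.52-fold lower in clone c8 than in clone c6 (-0.60 ± 0.12, adjusted p = 0.00214), lower at all 8 shared times, and the mean of its 4 probe sets gave -0.26 (adjusted p = 0.0646).

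PCDH8, whose rat relative arcadlin is induced by neuronal activity, was bright and varied. Its signals over the shared times were 183 to 580.1 in clone c8 and 131 to 459 in clone c6. The 2 highest arrays of clone c8 were times 12 and 24 (525 and 580.1), and those of clone c6 were times 24 and 48 (459 and 453). Late against start PCDH8 gave 0.23 ± 0.28, adjusted p = 0.731 (limma), with a 95% interval of -0.37 to 0.84, and its change over time did not pass (adjusted p = 0.133). PCDH10, PCDH12 and PCDH19 also passed the filter and changed in no comparison over time, and PCDH7 and PCDH11X were below it.

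**Figure D3:**
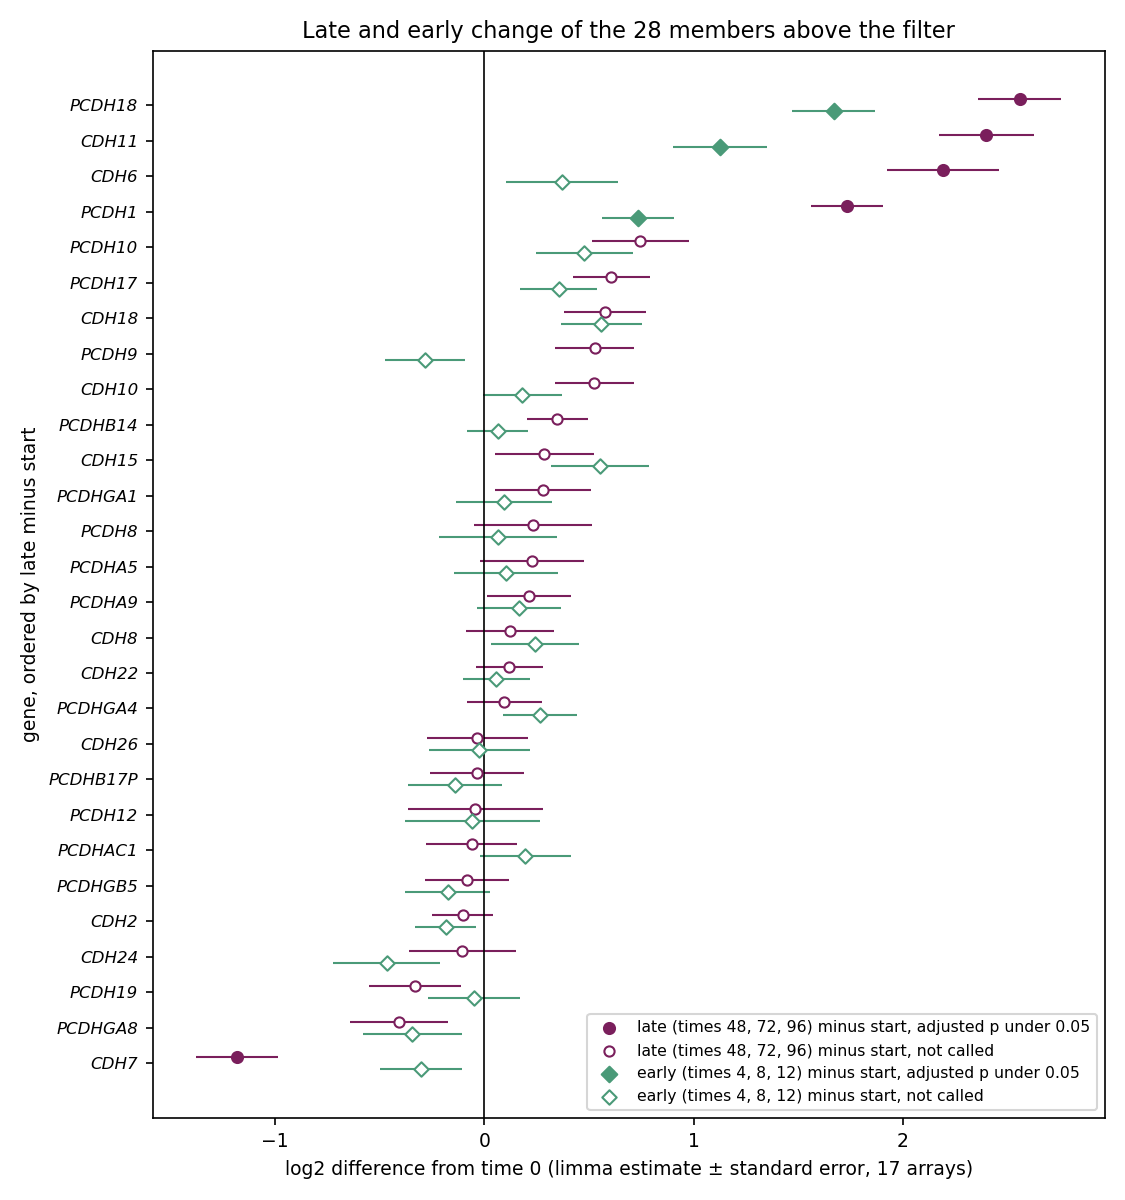
Log2 difference of each of the 28 members late against start and early against start (limma estimate ± standard error, 17 arrays), with filled points where the adjusted p is under 0.05. Filled late points are those of PCDH18, CDH11, CDH6, PCDH1 and CDH7, and filled early points are those of PCDH18, CDH11 and PCDH1.

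The clustered protocadherins, 36 of the 69 members, were mostly dim. Above the filter were 3 of 6 alpha, 2 of 17 beta and 4 of 13 gamma genes, and none of the 9 passed any test over time or between clones, with 1 of them at an unadjusted p under 0.05 late against start. The brightest were PCDHB14 at 41.6 to 108 and PCDHA9 at 19.1 to 58.2, which gave 0.35 ± 0.15, adjusted p = 0.208 and 0.21 ± 0.20, adjusted p = 0.649 late against start (limma). PCDHB14 was above its own time 0 on all 6 late arrays and PCDHA9 on 4 of 6. The median log2 difference late against start was 0.21 for the 3 alpha genes, 0.16 for the 2 beta genes and 0.0063 for the 4 gamma genes. Genes of a cluster share exons or near-identical exons, so probe sets of single members may read their neighbours.

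A further 16 probe sets carry several symbols that include a cadherin or protocadherin and belong to no single member. Among them, 3 are annotated to all 15 alpha-cluster genes, whose transcripts share their last exons. They had signals of 74.5 to 177, 50.2 to 138 and 17.6 to 41.3. Late against start they gave 0.49 ± 0.13, adjusted p = 0.0793, then 0.53 ± 0.19, adjusted p = 0.280, and 0.25 ± 0.21, adjusted p = 0.768, all positive and none past the threshold (limma over all 54675 probe sets, of which 2.13% passed).

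The 41 members below the filter had signals of 0.1 to 32.7 on any array, and 31 of them never reached 16. They were 2 type I and 5 type II cadherins, 4 other cadherins, 2 non-clustered protocadherins, 3 alpha, 15 beta and 9 gamma genes, and PCDH10-DT, a noncoding RNA whose symbol the naming rule takes in. Their medians over the 17 arrays lay between 0.6 and 9.6. The pseudogenes PCDHB17P, PCDHB18P and PCDHGB8P also fall under the rule, and of these PCDHB17P passed the filter. CDH26, the only other cadherin above it, was at 6.2 to 31.3 and gave -0.032 ± 0.24, adjusted p = 0.963 late against start. Of the 69, 43 lie on chromosome 5, among them all clustered genes, with 14 above the filter.

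Early against start, 3 of the 28 members changed, all higher (PCDH18, CDH11 and PCDH1), which is 10.7% beside 2.01% of all genes tested (1.29% higher and 0.724% lower). Late against early, where the time 0 arrays do not enter, 6 of the 28 changed, 5 of them higher (CDH6, CDH11, PCDH1, PCDH18 and PCDH9) and 1 lower (CDH7), or 21.4% beside 5.18% of all genes (3.77% higher and 1.41% lower). Change over time passed in 7 members (25% beside 6.61% of all genes), those 6 and PCDH17. Late against start and early against start share their time 0 arrays, so their calls are not independent. CDH6 and CDH7 passed late against both other phases and gave 0.37 and -0.30 early against start (adjusted p = 0.589 and 0.542), whereas PCDH18, CDH11 and PCDH1 passed in all 3 comparisons.

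**Figure D4:**
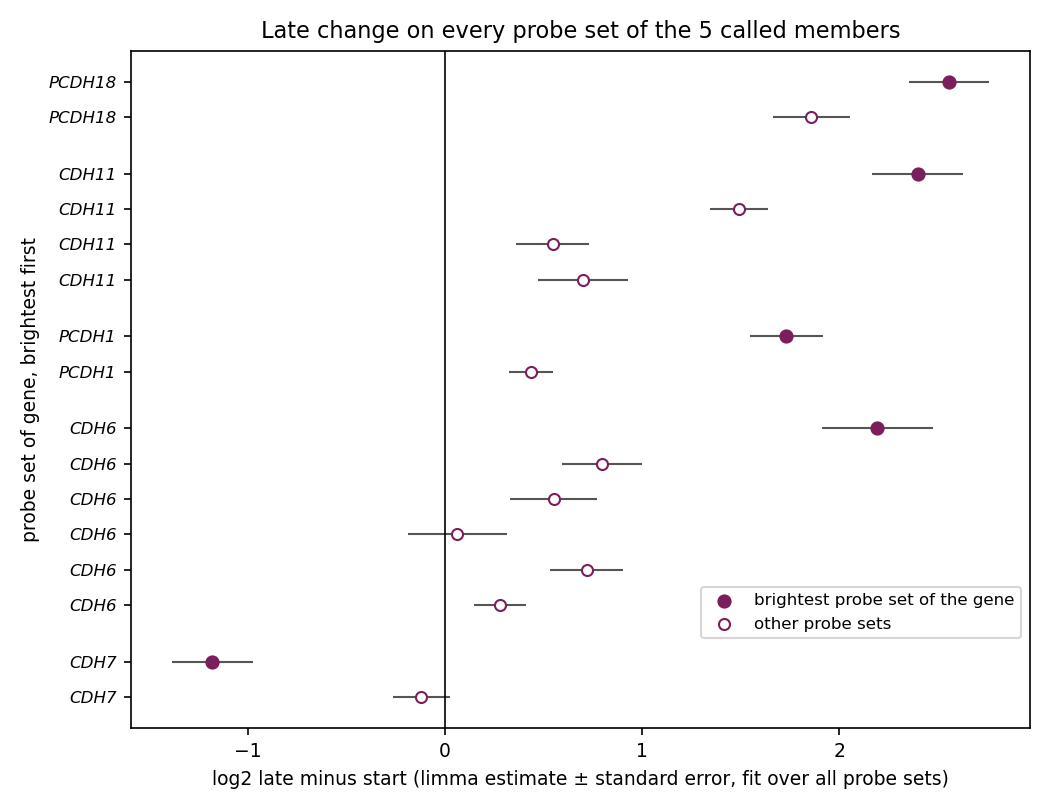
Log2 difference late against start (estimate ± standard error, fit over all 54675 probe sets) of every probe set of the 5 members that changed late against start, the probe set used for the gene set apart from the others. The others of PCDH18, CDH11, PCDH1, CDH6 and CDH7 lie on the same side of 0 as the probe set used, and none exceeds it in size.

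The clones differed in level in 6 of the 28 members, 1 higher in clone c8 (CDH10) and 5 lower (CDH7, PCDH19, PCDH9, PCDH10 and CDH2). That is 21.4%, beside 21.7% of all genes tested (11.4% higher and 10.2% lower), a share near the background. CDH10 averaged 271 ± 36.5 in clone c8 and 122 ± 43.7 in clone c6 (SD over the 8 shared times), 2.16-fold higher (1.11 ± 0.12, adjusted p = 1.56e-05, limma). PCDH19, a delta-2 protocadherin mutated in a human epilepsy, averaged 37 ± 10.8 in clone c8 and 82.5 ± 19.7 in clone c6 (-0.89 ± 0.13, adjusted p = 0.000328) and was lower in clone c8 at all 8 times. PCDH10, another delta-2 protocadherin, averaged 13.6 ± 7.01 in clone c8 and 27.8 ± 9.7 in clone c6 (-0.57 ± 0.14, adjusted p = 0.0108), lower in clone c8 at 7 of 8 times, with a difference of -1.06 at a pseudocount of 1 and -0.24 at 64. PCDH18, CDH11, CDH6 and PCDH1 gave -0.26, 0.26, -0.049 and 0.17, none past the threshold. NOTCH3 was also higher in clone c8 (1.21 ± 0.11, adjusted p = 6.23e-06), and its part in these differences was not tested. With a single clone on each side, the spread here is between times within a clone.

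**Figure D5:**
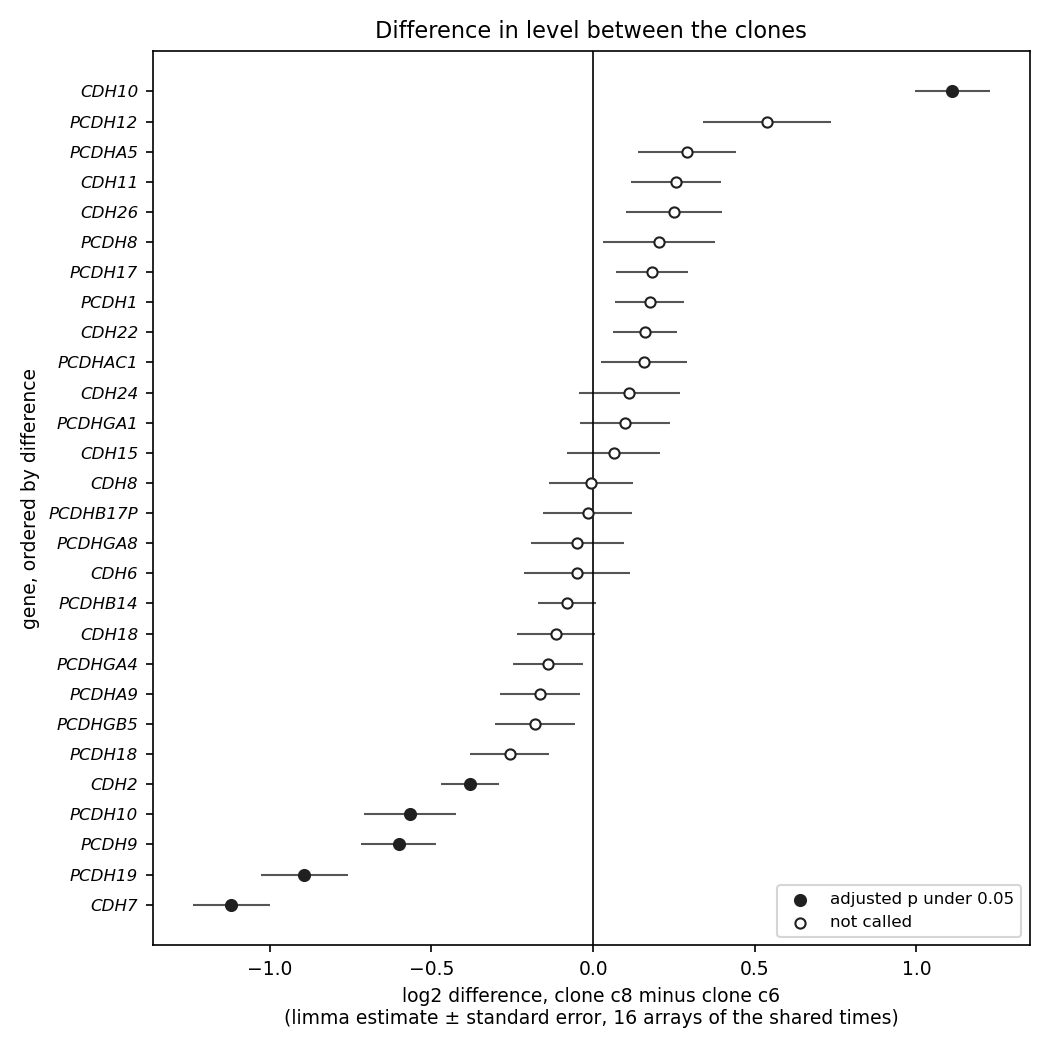
Log2 difference between clone c8 and clone c6 (c8 minus c6, limma estimate ± standard error, 16 arrays of the 8 shared times) for the 28 members, ordered by difference, with filled points where the adjusted p is under 0.05. CDH10 is at the top with 1.11 and CDH7 at the bottom with -1.12.

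Whether the late minus early change itself differed between the clones was tested as an interaction, and no member passed (0 of 28, beside 0% of all genes, limma). At an unadjusted p under 0.05 there was 1 member, and 1193 of the 13675 genes. That member, PCDH12, a protocadherin of endothelium, was chosen here after its value was seen, and it gave 1.27 ± 0.33, adjusted p = 0.518. The interaction of CDH11 was -0.95 ± 0.49, adjusted p = 0.599, in the direction of a smaller late minus early change in clone c8, where time 12 had already reached the late signals. The test had 8 residual degrees of freedom, and a p that misses the threshold does not show that the clones changed alike.

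The partners through which cadherins act were read from lists. Of 15 catenins and other junction proteins tested, 2 rose late against start and none fell, where 5.21% of all genes tested rose and 1.73% fell. VCL, vinculin, which reinforces junctions under tension, gave 1.43 ± 0.11, adjusted p = 1.09e-06, and AJUBA, a LIM protein of junctions, gave 0.66 ± 0.12, adjusted p = 0.00225, whereas CTNNA1, alpha-catenin, gave 0.42 ± 0.12, adjusted p = 0.0558 (limma, over all genes). No catenin tested passed late against start, while CTNNA1 passed the test of change over time (adjusted p = 0.0335, limma). Beta-catenin, CTNNB1, named here because cadherin tails hold it, gave 0.038 ± 0.13, adjusted p = 0.914. The list of junction proteins had a median log2 difference of 0.28, against 0.015 for all genes. Of 12 atypical and giant cadherins, 2 rose, FAT3 (2.46 ± 0.39, adjusted p = 0.000761) and FAT1 (0.47 ± 0.12, adjusted p = 0.0289), with FAT4 at 0.59 ± 0.19, adjusted p = 0.0892 and a list median of 0.025, none of the 12 fell, and the same shares of all genes apply. None of the 11 desmosomal cadherins and plaque genes reached the filter.

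Of 6 nectins and partners, which start adhesion beside cadherins, 1 fell late against start, beside 1.73% of all genes tested (list median -0.014). It was NECTIN3 (-0.54 ± 0.13, adjusted p = 0.0135, limma), and AFDN, the afadin that ties nectins to actin, gave -0.26 ± 0.13, adjusted p = 0.310. Of 9 repressors of CDH1 transcription tested, 1 rose and 1 fell, beside 5.21% and 1.73% of all genes tested (list median -0.0017). SNAI2 gave 0.99 ± 0.13, adjusted p = 0.000111 late against start and had risen early (0.88 ± 0.13, adjusted p = 0.00196), TWIST1 fell (-0.52 ± 0.11, adjusted p = 0.00556), and ZEB1 gave -0.33 ± 0.12, adjusted p = 0.130. CDH1, dim from the start, was too low on these arrays for a change in it to be read. Of 13 regulators of the clustered protocadherins, among them CTCF, which loops their promoters to enhancers, none passed (3 at an unadjusted p under 0.05, list median -0.18), and 0 of 12 WAVE and other partners of the protocadherin tails did (1 at an unadjusted p under 0.05, list median 0.070).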

How the data were processed

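Per the submitters' processing notes, MAS5 and GCOS (no versions named) made the deposited linear intensity of each probe set, and the values show that every array was scaled to a 2% trimmed mean of 100.01. Detection calls and scanner files were not used here. The platform annotation gave 41097 of 54675 probe sets 1 symbol, 1801 several and 11777 none. All 69 members were found in RefSeq's gene table (GRCh38.p14), with no symbol changed. The build used to annotate the probes was not given in the sources, so only promoter windows have coordinates.

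Log2(signal + 16) was tested, which understates changes of dim genes. The intensity filter kept genes whose mean was at or above the 40th percentile over probe sets (4.68, a signal of 9.58). Every test came from limma 3.58.1 in R 4.3.3 (lmFit, eBayes with an intensity trend, Benjamini-Hochberg adjustment, threshold 0.05). Change over time (moderated F) and both comparisons with the start used 17 arrays with terms for time and clone (7 residual degrees of freedom). The comparison of late with early used 12 arrays and a clone term (9), the clone difference 16 arrays and a time term (7), and the interaction those 12 arrays (8). In comparisons of phases, neighbouring times stand in for replicates. A ± with no other name is a standard error. At most 1.42% of values were equal between any pair of arrays. The scripts' tests were checked on simulated data.

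The members, lists and markers were chosen with earlier results of these data known. Given in full are members that changed in a test over time and, fixed by name, CDH2 and CDH11. CDH1 and CDH5, also fixed by name, were below the filter and have their lowest, median and highest signals. CDH13, fixed by name as well, was not listed under a single symbol. Members that differ only between clones have clone means, the brightest 5 without any call have ranges, and of each list up to 3 genes of smallest p are named. Alternatives were a pseudocount of 1 or 64, quantile or median scaling between arrays, no intensity filter or one at the 60th percentile, averaged probe sets, untrended eBayes, no clone term, phases in place of times, single clones, arrays left out one by one, and, chosen after seeing the data, the course without time 12.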

Additional observations from a re-analysis of the deposited data

How the results depend on the processing

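The number of members called late against start was 5. It was 3 in clone c8 alone, without PCDH1 and CDH11, and 3 in clone c6 alone, without PCDH1 and CDH7, and it ranged from 4 to 7 when each array was left out in turn, with CDH7 lost or PCDH17, PCDH10 or CDH10 gained. The early count of 3 was 1 with no filter, with probe sets averaged per gene, without a clone term, with phase means in place of time points, and without time 12 of both clones (chosen after seeing the data). It was 0 in clone c8 alone and 0 in clone c6 alone, and 1 to 3 with an array left out, the 1 without time 0 of clone c8 or of clone c6. PCDH18 was the member called wherever the early count was 1. The late against early count of 6 was 3 without a clone term, 1 in clone c8 alone and 4 to 7 with an array left out. Change over time had 7 members, 4 without a clone term and 6 to 8 with an array left out, and the clone difference 6, or 6 to 7. The interaction stayed at 0. Over 40 results and 1135 values under the alternatives, 1025 kept direction and side of the threshold, 94 lost the threshold, 6 gained it and 10 changed sign. Early against start, those were CDH6 at -0.049 and PCDH9 at 0.015 with the mean of probe sets, and CDH7 at 0.065 and PCDH17 at -0.042 in clone c6 alone. Late against start they were CDH2 at 0.10 in clone c8 alone and CDH24 at 0.00428 in clone c6 alone, and, with an array left out, CDH2 at -0.21 to 0.0024, CDH24 at -0.33 to 0.12 and PCDH8 at -0.14 to 0.60. None of these was called. Under median centring the share of higher calls among all genes late against start was 64.3%, against 75.0%, and the 5 member calls were the same. The cause of these shifts was not tested. The clone pairs the arrays by labelled time and is a term in the main fits, and the counts without it stand above. Precision is limited by the number of arrays, with 2 at time 0, and dim signals near 16 are compressed by the pseudocount.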

Other observations

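Other surface proteins of neurons changed beside the cadherins. Of 11 neuronal adhesion molecules of the immunoglobulin family tested, 4 rose and 3 fell late against start, beside 6.94% of all genes tested that changed. MCAM, an adhesion molecule also known from melanoma and pericytes, gave 2.66 ± 0.26, adjusted p = 1.01e-05, CNTN4, a contactin of axons, gave 1.98 ± 0.27, adjusted p = 0.000171, and CADM1, a synaptic cell adhesion molecule, gave 0.79 ± 0.14, adjusted p = 0.00145 (log2 scale, limma). ALCAM, which also rose (0.92 ± 0.20, adjusted p = 0.0103), and those that fell were named after their values were seen. The 3 that fell were LSAMP (-1.01 ± 0.21, adjusted p = 0.00635) and the contactins CNTN1 (-0.77 ± 0.18, adjusted p = 0.0136) and CNTN2 (-0.58 ± 0.16, adjusted p = 0.0370). The list had a median of 0.13, against 0.015 for all genes.

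None of 10 genes that shed or process cadherins passed late against start (3 at an unadjusted p under 0.05, list median 0.073), with FURIN at 0.72 ± 0.23, adjusted p = 0.0844, PCSK6 at -0.49 ± 0.18, adjusted p = 0.138 and MMP9 at 0.47 ± 0.18, adjusted p = 0.158 (limma). None of 7 tight junction genes passed (0 at an unadjusted p under 0.05, list median -0.037), with CGN at -0.21 ± 0.18, adjusted p = 0.601, TJP1 at 0.12 ± 0.10, adjusted p = 0.602 and OCLN at -0.21 ± 0.22, adjusted p = 0.681. Among the cohesin and CTCF genes that serve the protocadherin clusters, SMC3 gave -0.42 ± 0.13, adjusted p = 0.0751, NIPBL -0.37 ± 0.12, adjusted p = 0.0912 and WAPL -0.29 ± 0.13, adjusted p = 0.231. Among the WAVE partners, BRK1 gave 0.23 ± 0.096, adjusted p = 0.203, CYFIP1 0.21 ± 0.10, adjusted p = 0.277 and CTTN 0.22 ± 0.15, adjusted p = 0.462.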
